A study of Rattus norvegicus with 5 samples.

Results

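Genes of blood vessels and of the barrier between blood and spinal cord were followed in RNA from the dorsal horn of the rat lumbar spinal cord. The members were 32 listed genes, 22 of endothelial cells and their barrier and 10 of mural cells, listed by name, with earlier results of these data known. Of these, 31 had a row under exactly that name among the 17321 genes of the count table, 21 endothelial and barrier genes and 10 mural genes. All 31 had enough counts to be tested. The organic anion transporter gene Slco1a4 had no row under that name. A row named Slco1a2, which RefSeq lists as a synonym of it, is described apart.

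The animals were Sprague Dawley rats with no genetic change named in the labels, and lumbar dorsal horn (L4-L6) was taken on day 9 after surgery. There were 3 libraries from rats with CCI, which usually stands for chronic constriction injury, a loose tying of the sciatic nerve used as a model of neuropathic pain. The other 2 libraries came from rats with SHAM surgery, the operation without the injury, and these are the control group. The question for these genes was whether their RNA in the dorsal horn differed between injured and sham-operated rats, in the endothelial set and in the mural set. Age, sex and whether each library is a separate animal are not stated in these sources, so a p-value here reflects how far these libraries vary, which may be technical.

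Endothelial cells line the vessel and, in the central nervous system, seal it with tight junctions, hold back vesicle traffic and carry nutrients and waste through dedicated transporters. Pericytes lie on capillaries and keep the endothelium in this sealed state, and smooth muscle cells ring the arterioles and contract. Both mural cell types depend on growth factor and Notch signals from the endothelium. After nerve injury, barrier genes of the spinal cord have been studied because blood proteins and leukocytes can enter the cord when the barrier opens.

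Total estimated counts ran from 20053353 to 23673198 per library. Of 20 markers of dorsal horn neurons and central glia fixed as a tissue check, 19 had a row and all 19 passed the count filter. Ribosomal RNA rows held 16.0% of the counts in CCI 3 and 2.18% to 2.71% in the other libraries. The CCI libraries were not alike in RNA of fibroblast and Schwann cell markers, and where this RNA came from was not tested. The summed level of 15 tested fibroblast markers was 231 CPM in CCI 1, 1013 CPM in CCI 2 and 857 CPM in CCI 3, against 241 and 287 CPM in SHAM. That of 15 Schwann cell markers was 432, 632 and 1075 CPM with CCI and 414 and 435 CPM after SHAM surgery. CPM are depth-normalised counts, with library totals scaled by trimmed mean of M-values (TMM). The fibroblast collagen gene Col3a1 was at 19.3, 417 and 265 CPM (CCI) and 22.2 and 36.8 CPM (SHAM). CCI 2 and CCI 3 stood apart in these markers, and CCI 1 was at the SHAM level.

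Pltp alone among the 31 tested members was called, 1 of 21 endothelial and barrier genes and 0 of 10 mural genes. Calls needed a 1.5-fold difference or more together with an edgeR quasi-likelihood p, adjusted over all genes, no higher than 0.05, and 2.85% of all 13478 tested genes were called (2.59% higher in CCI, 0.26% lower). In calls the set was therefore near the background rate. At an unadjusted p under 0.05 there were 9 of 21 endothelial and barrier genes and 0 of 10 mural genes, beside 16.0% of all tested genes. DESeq2 and the likelihood ratio test also called 0 mural genes. The median log2 fold change of CCI over SHAM was 0.18 over the endothelial and barrier genes, 0.04 over the mural genes and 0.01 over all tested genes. Of the endothelial and barrier genes, 17 of 21 (81.0%) had a fold change above 0, as did 5 of 10 mural genes and 51.9% of all tested genes. The difference between the 2 sets was not tested. In bulk tissue, fewer cells of a type and less RNA per cell cannot be told apart.

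**Figure D1:**
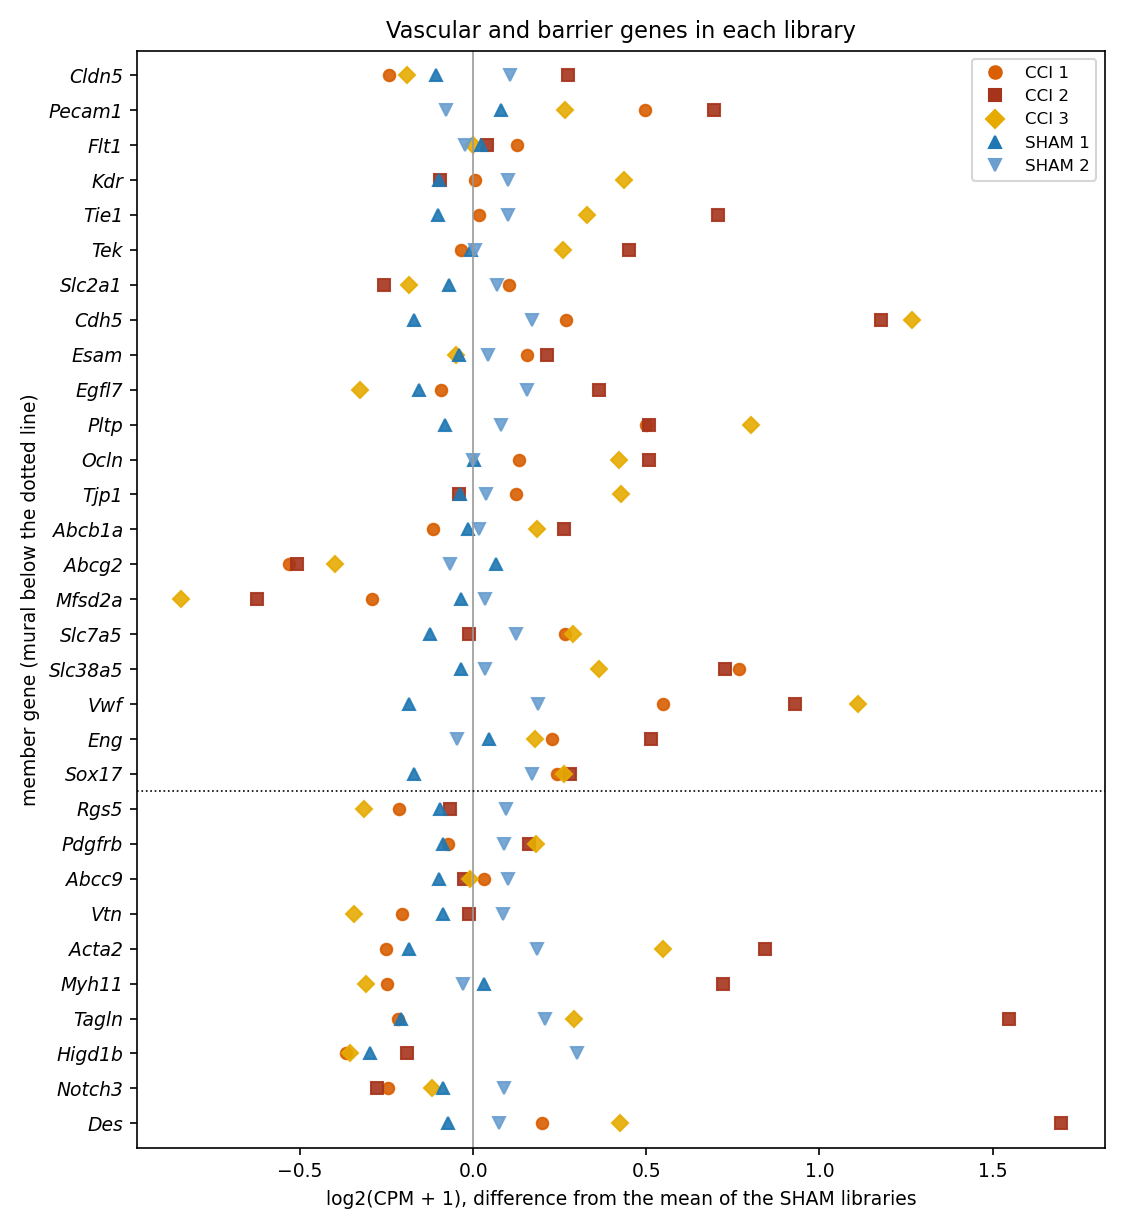
Level of each of the 31 tested members in every library, as log2(CPM + 1) minus the mean of the SHAM libraries. Each point is 1 library, with mural genes below the dotted line. Pltp, Vwf and Slc38a5 have every CCI point to the right of both SHAM points, Mfsd2a and Abcg2 have every CCI point to the left, and Tagln and Des are farthest right in CCI 2.

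Counted by whether the groups overlapped, 8 of 21 endothelial and barrier genes (38.1%) had all CCI libraries above both SHAM libraries, and 2 (9.52%) had all below. Among all tested genes 18.6% lay without overlap above and 18.1% below, 36.7% in all. The 8 were Pecam1, Cdh5, Pltp, Ocln, Slc38a5, Vwf, Eng and Sox17, and the 2 were Abcg2 and Mfsd2a. Of the mural genes, Des lay above and Notch3 below without overlap.

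The tight junction genes were not called. Cldn5, the main sealing claudin of central nervous system endothelium, was 97.7, 140.1 and 101 CPM in CCI 1, CCI 2 and CCI 3 and 107 and 125 CPM in SHAM 1 and SHAM 2. The SHAM libraries lay between the lowest and the highest CCI library, and the log2 fold change was -0.04 (95% interval -0.43 to 0.35, adjusted p = 0.933). Ocln, the tight junction membrane protein occludin, was 27.5, 35.9 and 33.8 CPM with CCI and 25.0 and 24.9 CPM after SHAM surgery. Every CCI library was higher, and the log2 fold change was 0.38 (interval 0.07 to 0.68, adjusted p = 0.214). Tjp1, which encodes a scaffold that ties junction proteins to actin and is made by many cell types, was 196 to 271 CPM with CCI and 196 and 207 CPM after SHAM surgery (log2 fold change 0.18, adjusted p = 0.551).

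All 3 adhesion genes of endothelial junctions had fold changes above 0, and none was called. Cdh5, which encodes VE-cadherin, the adhesive protein of the endothelial adherens junction, was 8.79, 17.4 and 18.6 CPM with CCI and 6.23 and 8.14 CPM after SHAM surgery. CCI 2 and CCI 3 stood far above SHAM and CCI 1 just above it. The log2 fold change was 1.05 (SE 0.34, adjusted p = 0.193), the largest of the endothelial and barrier genes. Without CCI 1 it was 1.32 and was called (adjusted p = 0.00362). In the fit that keeps CCI 1 alone against SHAM it was 0.28, and with the fibroblast marker level as a covariate it was 0.38. Marker covariates were highest in CCI 2 and CCI 3, so fits with them cannot fully separate marker level from injury. Pecam1, the adhesion molecule also known as CD31, was 36.6, 42.2 and 31.1 CPM with CCI and 27.2 and 24.2 CPM after SHAM surgery (log2 fold change 0.51, SE 0.15, adjusted p = 0.119). CCI 2 was its highest library. Its value was 0.40 without CCI 2, 0.61 without CCI 3, 0.50 with both left out and 0.51 with the fibroblast covariate, uncalled in each. Esam, a further endothelial adhesion molecule, had a log2 fold change of 0.12 (adjusted p = 0.693).

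None of the 5 growth factor receptor genes was called, and all 5 fold changes were above 0. Flt1 and Kdr, the receptors of VEGF, differed least. Flt1 was 159, 149 and 145 CPM with CCI and 148 and 143 CPM after SHAM surgery, a log2 fold change of 0.06 with an interval of -0.16 to 0.28. Kdr, the main signalling receptor, was 15.6 to 23.0 CPM with CCI and 15.5 and 18.0 CPM after SHAM surgery (log2 fold change 0.14). Tie1 and Tek, the receptors of the angiopoietin system, were highest in CCI 2, at 46.4 and 44.3 CPM, and had log2 fold changes of 0.39 (adjusted p = 0.402) and 0.25 (adjusted p = 0.451). In CCI 1, Tie1 lay between the SHAM libraries and Tek below both. Eng, or endoglin, a co-receptor for the TGF-beta family, was 32.6, 40.02 and 31.6 CPM with CCI and 28.7 and 26.8 CPM after SHAM surgery. All CCI libraries were higher, by a log2 fold change of 0.32 (adjusted p = 0.276).

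Pltp was the called member. It encodes phospholipid transfer protein, which moves phospholipids between lipoproteins and is made by brain endothelium and by other cells of the cord. It was 90.4, 90.9 and 112 CPM with CCI and 60.1 and 67.4 CPM after SHAM surgery. Every CCI library lay well above both SHAM libraries. Group means were 63.7 ± 5.10 CPM for SHAM (SD, n = 2) and 97.7 ± 12.2 CPM for CCI (SD, n = 3). The CCI mean was 1.53-fold higher, with a fitted log2 difference of 0.62 (SE 0.13, edgeR adjusted p = 0.0387). This is just past the fold threshold of 1.5. The call was lost without CCI 3 (0.51, under the fold), without SHAM 1 (adjusted p = 0.398) and without SHAM 2 (adjusted p = 0.20). It was also lost with CCI 2 and CCI 3 left out (0.49), with limma-voom (adjusted p = 0.0559), and with the Schwann cell (0.44) or fibroblast (0.52) markers as a covariate. The estimated counts of Pltp, Flt1, Egfl7, Ocln, Abcb1a and Abcc9 were partly fractional, so reads can be shared with other rows and these values are uncertain.

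Among the other secreted products, Vwf came nearest to a call. It encodes von Willebrand factor, which endothelial cells store and release to tether platelets. It was 112, 146 and 166 CPM with CCI and 67.1 and 87.1 CPM after SHAM surgery, and the groups did not overlap. The log2 fold change was 0.88 (SE 0.19, 1.84-fold, adjusted p = 0.0582). It was called without CCI 1 (1.02, adjusted p = 0.00471), by the likelihood ratio test (adjusted p = 0.000506), by DESeq2 (adjusted p = 0.000260), without a scaling factor and without a low-count filter. It was 0.53 with CCI 2 and CCI 3 left out and 0.57 with the fibroblast covariate, uncalled in both. Egfl7, a secreted protein of growing and resting endothelium, was 24.4 to 40.1 CPM with CCI and 27.7 and 34.6 CPM after SHAM surgery (log2 fold change 0.01). Sox17, a transcription factor of arterial endothelium, was 8.15, 8.38 and 8.27 CPM with CCI and 5.86 and 7.69 CPM after SHAM surgery (log2 fold change 0.29, adjusted p = 0.478).

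**Figure D2:**
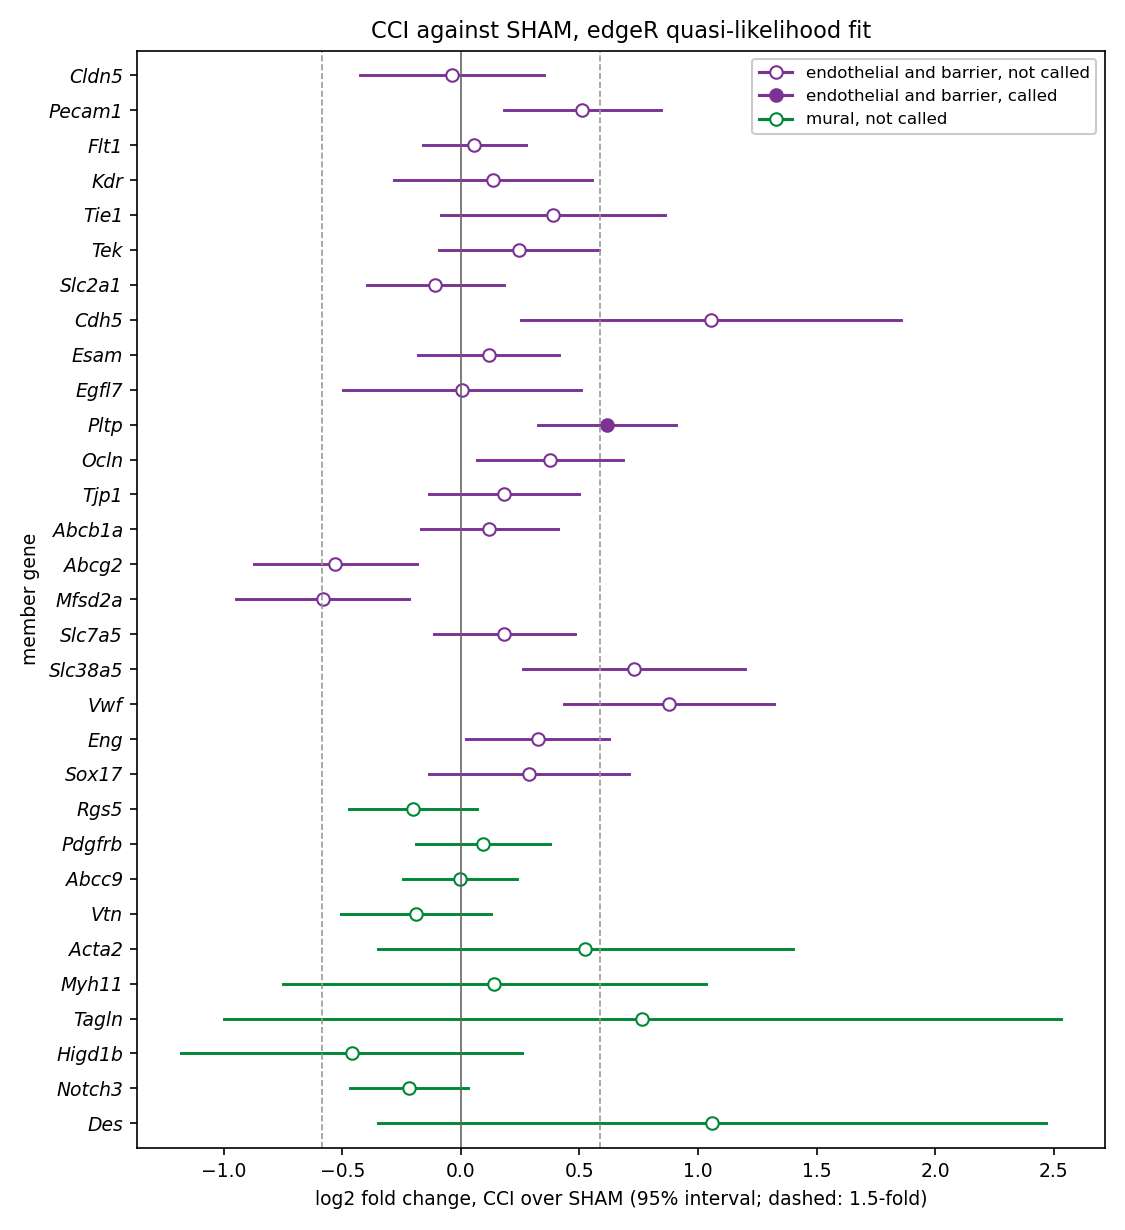
Log2 fold change of CCI over SHAM for each of the 31 tested members, with 95% intervals from edgeR's quasi-likelihood fit. Purple marks endothelial and barrier genes and green marks mural genes, filled points are called, and dashed lines mark 1.5-fold. Pltp at 0.62 is the filled point. Intervals are widest for Tagln and Des.

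The barrier transporters lay on both sides of 0. Of 6 tested, 3 had fold changes above 0 and 3 below, and none was called. Mfsd2a, a lipid transporter that also restrains vesicle traffic across barrier endothelium, was 38.5, 30.3 and 25.9 CPM with CCI and 46.1 and 48.5 CPM after SHAM surgery. Each CCI library was lower than both SHAM libraries, CCI 1 the least. The log2 fold change was -0.58 (SE 0.16, 0.668 of the SHAM level, adjusted p = 0.109). It was called by DESeq2 (-0.59, adjusted p = 0.0268) and without CCI 1 (-0.75, adjusted p = 0.0121), and it was -0.31 with CCI 2 and CCI 3 left out and -0.35 with the fibroblast covariate.

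Abcg2, an efflux pump of the luminal membrane, was 8.19, 8.34 and 9.07 CPM with CCI and 12.9 and 11.7 CPM after SHAM surgery. All CCI libraries were lower and close to each other (log2 fold change -0.53, SE 0.15, adjusted p = 0.119). It was -0.60 with CCI 2 and CCI 3 left out. Abcb1a, which encodes the efflux pump P-glycoprotein, was 88.4, 115 and 109 CPM with CCI and 94.7 and 96.9 CPM after SHAM surgery, a log2 fold change of 0.12 (interval -0.17 to 0.41). The 2 efflux pumps therefore had values of opposite sign, and neither was called.

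The nutrient carriers also differed in sign. Slc2a1, the glucose transporter of the barrier, was 193, 149.8 and 158 CPM with CCI and 171 and 188 CPM after SHAM surgery, with overlap between the groups (log2 fold change -0.11, interval -0.40 to 0.18). Slc7a5, which carries large neutral amino acids, had a log2 fold change of 0.18 (adjusted p = 0.522). Slc38a5, a glutamine carrier, was 9.30, 9.01 and 6.79 CPM with CCI and 4.91 and 5.20 CPM after SHAM surgery. All CCI libraries were higher, with CCI 1 the highest and CCI 3 the lowest. The log2 fold change was 0.73 (SE 0.21, 1.66-fold, adjusted p = 0.115), and it was 0.87 with CCI 2 and CCI 3 left out and 0.84 with the fibroblast covariate. The row Slco1a2, the RefSeq synonym of the listed Slco1a4, was 85.5, 140 and 109 CPM with CCI and 106 and 88.3 CPM after SHAM surgery (log2 fold change 0.20, adjusted p = 0.670).

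Of the 6 pericyte genes, 5 had fold changes below 0, and none was called. Rgs5, a regulator of G protein signalling and a leading pericyte marker, was 43.0, 47.7 and 40.04 CPM with CCI and 46.8 and 53.5 CPM after SHAM surgery (log2 fold change -0.20, interval -0.47 to 0.07). Pdgfrb, the receptor through which endothelial PDGF recruits pericytes, was 34.7, 41.01 and 41.6 CPM with CCI and 34.3 and 38.9 CPM after SHAM surgery (0.09, interval -0.19 to 0.38). Abcc9, a subunit of the ATP-sensitive potassium channel, had a log2 fold change of 0.00 (interval -0.25 to 0.24). Vtn, which encodes the matrix protein vitronectin, had -0.19 (adjusted p = 0.533).

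Notch3, the mural Notch receptor, was 48.0, 46.9 and 52.5 CPM with CCI and 53.6 and 60.7 CPM after SHAM surgery. All CCI libraries were lower, by a small step (log2 fold change -0.22, adjusted p = 0.373). Higd1b, a pericyte marker of low level, had 38 to 60 counts in CCI and 47 and 75 in SHAM, and a log2 fold change of -0.46 with a wide interval of -1.18 to 0.26. The median of the 6 pericyte genes was -0.19.

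The 4 contractile genes of smooth muscle differed more between the CCI libraries than between the groups. Tagln, which encodes the actin-binding protein transgelin, was 13.5, 48.3 and 19.6 CPM with CCI and 13.6 and 18.5 CPM after SHAM surgery. Des, the intermediate filament desmin, was 6.53, 20.2 and 7.80 CPM with CCI and 5.23 and 5.90 CPM after SHAM surgery. Acta2, smooth muscle actin, was 3.47, 8.54 and 6.79 CPM with CCI and 3.68 and 5.05 CPM after SHAM surgery. Myh11, the smooth muscle myosin heavy chain, was 44.8, 88.7 and 43.0 CPM with CCI and 54.6 and 52.3 CPM after SHAM surgery.

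CCI 2 was the highest library for each of the 4. The log2 fold changes were 0.77 for Tagln (adjusted p = 0.615), 1.06 for Des (0.427), 0.53 for Acta2 (0.527) and 0.14 for Myh11 (0.876), and none was called. Without CCI 2 they were 0.05, 0.36, 0.23 and -0.28. The fibroblast markers were also highest in CCI 2, at a summed 1013 CPM. They were nearly as high in CCI 3, at 857 CPM. There Myh11 was 43.0 CPM, below both SHAM libraries, and Tagln was 19.6, Des 7.80 and Acta2 6.79 CPM. The part of fibroblasts in the contractile values was not tested. With the fibroblast markers as a covariate the values were -0.16 for Tagln, 0.30 for Des, -0.25 for Acta2 and -0.22 for Myh11. That covariate was high in CCI libraries only, so this fit cannot separate it from the injury.

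Promoter sequences of 21 of the 32 listed genes were matched in RefSeq (build GRCr8). The 2 contractile genes with a matched promoter, Acta2 and Des, were highest in CCI 2. The pericyte gene Rgs5 was highest in SHAM 2 (53.5 CPM) and, among the CCI libraries, in CCI 2 (47.7 CPM). Shown are the 250 bases before the start site of each of these genes. All are written 5′ to 3′ on the gene's strand. Capitals mark CArG boxes, the binding motif of serum response factor, which drives many smooth muscle genes. The box has the letters CC, then 6 bases that are A or T, then GG, and here 1 mismatch was allowed, a loosening chosen after the sequences were seen.
Acta2, chr1:241172504-241172753, minus strand: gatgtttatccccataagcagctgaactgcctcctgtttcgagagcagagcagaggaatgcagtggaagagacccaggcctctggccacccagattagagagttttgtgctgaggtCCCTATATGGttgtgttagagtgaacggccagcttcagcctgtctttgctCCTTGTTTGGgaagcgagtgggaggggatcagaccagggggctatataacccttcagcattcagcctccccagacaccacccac
Des, chr9:84299376-84299625, plus strand: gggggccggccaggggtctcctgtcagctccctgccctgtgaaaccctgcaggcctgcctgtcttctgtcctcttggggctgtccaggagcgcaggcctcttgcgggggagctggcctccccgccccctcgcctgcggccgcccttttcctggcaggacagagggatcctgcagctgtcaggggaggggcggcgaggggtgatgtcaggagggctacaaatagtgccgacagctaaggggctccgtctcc
Rgs5, chr13:84380827-84381076, plus strand: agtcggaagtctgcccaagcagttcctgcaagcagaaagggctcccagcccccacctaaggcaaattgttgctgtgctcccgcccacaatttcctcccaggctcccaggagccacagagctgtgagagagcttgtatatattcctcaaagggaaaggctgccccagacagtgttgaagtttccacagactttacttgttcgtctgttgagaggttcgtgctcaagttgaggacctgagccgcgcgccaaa

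Acta2 held 2 such boxes, CCCTATATGG starting 134 bases and CCTTGTTTGG starting 84 bases before the start site. Des and Rgs5 held none in this window. No member's window held an exact box, against 1.50% of all 33469 promoter windows of this length. With 1 mismatch, 8 of 22 member windows held a box (36.4%), against 18.7% of all windows, and both strands were searched. By set these were 6 of 16 endothelial and barrier windows (37.5%) and 2 of 6 mural windows (33.3%), so they were not particular to mural genes. A match is a description of the letters and not a shown binding site.

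**Figure D3:**
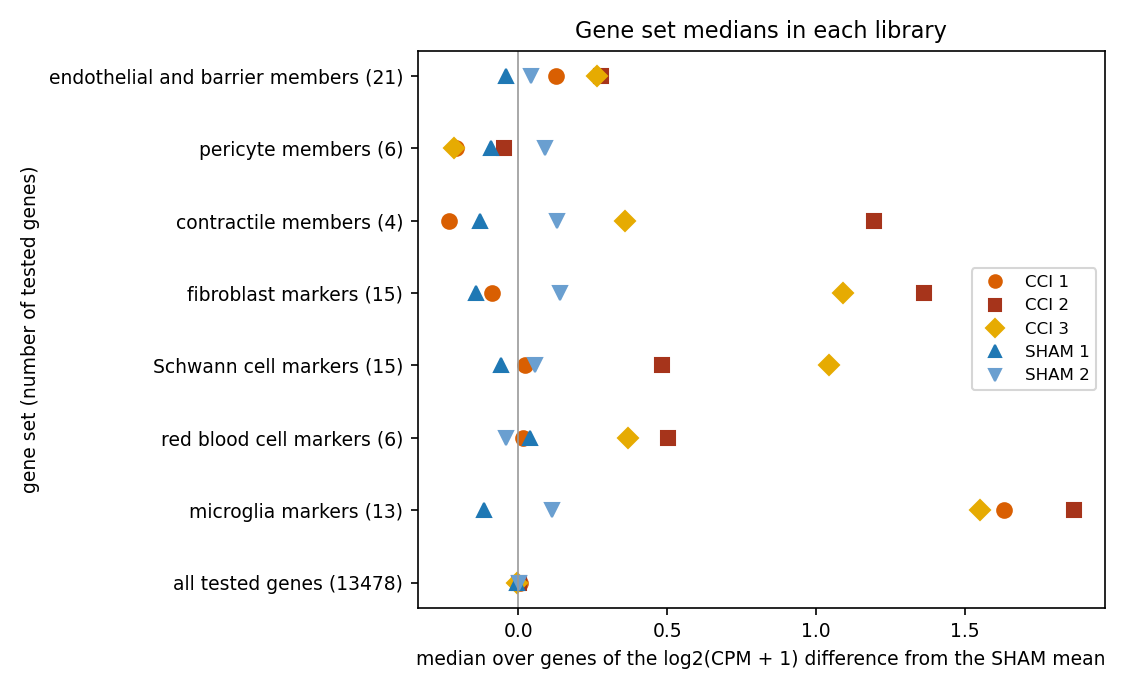
Median over the genes of each set of the log2(CPM + 1) difference from the SHAM mean, for each library, with the number of tested genes in brackets. The contractile members lie at 1.19 in CCI 2 and -0.23 in CCI 1. The fibroblast markers lie at 1.36 in CCI 2, 1.09 in CCI 3 and -0.09 in CCI 1. The endothelial and barrier members lie between 0.13 and 0.28 in the CCI libraries.

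The sets differed in which CCI libraries stood apart from SHAM. The endothelial and barrier median was 0.13, 0.28 and 0.26 above the SHAM mean in CCI 1, CCI 2 and CCI 3 on the log2(CPM + 1) scale, against -0.04 and 0.04 in SHAM. The pericyte median was -0.21, -0.05 and -0.22 in CCI, against -0.09 and 0.09 in SHAM. The contractile median was -0.23, 1.19 and 0.36. For comparison, the median of 13 microglia markers was 1.63, 1.86 and 1.55, alike in the 3 CCI libraries. The red blood cell markers had 0.02, 0.50 and 0.37 in CCI, and 6 of them were tested with none called. Of these 6, 5 had partly fractional counts. The haemoglobin gene Hbb was at a low level, 0.602, 5.72 and 2.07 CPM with CCI and 1.64 and 1.30 CPM after SHAM surgery. This median is therefore uncertain. No listed marker of fibroblasts, Schwann cells, microglia, perivascular macrophages, astrocytes or red blood cells that had a row was at 0 in every library.

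Levels between genes can be compared only per length. In the deposited normalized table, whose values are scaled for transcript length, Rgs5 was the highest member in SHAM at a mean of 181, followed by Cldn5 at 110.1, Slc2a1 at 88.2, Pltp at 40.8 and Tjp1 at 36.3. Cdh5 at 3.56, Slc38a5 at 3.50, Kdr at 3.40 and Des at 3.30 were among the lowest. In CCI the same 3 genes led, with Rgs5 at 160, Cldn5 at 109 and Slc2a1 at 83.3, and Pltp followed at 63.7. The order of Rgs5 above Cldn5 held in every library (143 to 188 against 93.4 to 137).

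The wider vascular pathway held 6 calls among 139 tested genes, all 6 higher in CCI, beside 2.85% of all tested genes. The count depended on the fit. It was 11 higher and 1 lower (Pdgfd) with DESeq2, and again with the likelihood ratio test, beside 4.56% and 5.18% of all genes, and 17 higher and 1 lower (Apln) were called without CCI 1, beside 5.69%. The lists were drawn up by name, with earlier results of these data known. Of 31 vascular growth factor and receptor genes 2 rose, with a list median of 0.12. Tgfb1, the growth factor TGF-beta, was 4.49, 4.29 and 7.58 CPM with CCI and 1.68 and 1.60 CPM after SHAM surgery (log2 fold change 1.72, SE 0.33, adjusted p = 0.0266). Tgfbr2, a receptor for it, was 28.5, 39.1 and 32.1 CPM with CCI and 17.6 and 19.9 CPM after SHAM surgery (0.83, SE 0.16, adjusted p = 0.0245). The call of Tgfbr2 was lost without CCI 3 (adjusted p = 0.0598) and with CCI 2 and CCI 3 left out (0.0926), and that of Tgfb1 with limma-voom (0.0686). Both genes are also made by microglia, whose 13 markers summed to 1180 to 1338 CPM with CCI and 371 and 422 CPM after SHAM surgery, with 10 of 13 called higher. The part of microglia in these values was not tested.

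Of 16 tested endothelial activation and leak genes 2 rose, with a list median of 0.33. Icam1, an adhesion molecule that leukocytes bind on inflamed endothelium and that microglia also make, was 8.65, 11.7 and 8.27 CPM with CCI and 3.0 and 3.70 CPM after SHAM surgery (1.51, SE 0.23, adjusted p = 0.00959). Lcn2, an iron-binding protein of reactive glia and endothelium, rose by 3.03 (SE 0.26, adjusted p = 0.000647). Of 20 other barrier transporters 1 rose, with a list median of 0.02. This was Slco2b1, an organic anion carrier found in endothelium and microglia, at 69.5, 75.7 and 62.5 CPM with CCI and 41.4 and 41.0 CPM after SHAM surgery (0.75, SE 0.11, adjusted p = 0.00959).

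Of 13 tested vascular basement membrane genes 1 rose, Itga5, a fibronectin receptor subunit, at 1.25 (SE 0.26, adjusted p = 0.0364). Its call was lost without CCI 2 (adjusted p = 0.0591), without CCI 3 (0.0803), with both left out (0.158), with limma-voom (0.0686) and in the deposited normalized table at either pseudocount (0.130 and 0.121). The list median was 0.32, and 12 of 13 fold changes were above 0, beside 51.9% of all tested genes. Only 13 of the 18 listed genes had a row. Some of them differed between the CCI libraries. Col4a1 was 71.2 CPM in CCI 1, below both SHAM libraries (75.9 and 77.9 CPM), and 108 and 115 CPM in CCI 2 and CCI 3. The part of fibroblasts and Schwann cells in this list was not tested. With the Schwann cell markers as a covariate the calls were Lcn2 and Slco2b1, and with the fibroblast markers Icam1, Lcn2 and Slco2b1. Of the 6, only Lcn2 was called without SHAM 1 and without SHAM 2, where 0.445% and 0.569% of all tested genes were called.

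None of 23 tested Wnt and endothelial transcription factor genes was called, with a median of 0.29. Fli1, a transcription factor of endothelial and blood cells, had the smallest p (1.28, SE 0.29, adjusted p = 0.0653). Wnt7a, a ligand that builds the barrier, had -0.38 (adjusted p = 0.112), with all CCI libraries at 28.6 to 32.03 CPM and SHAM at 39.7 and 40.4 CPM. None of 17 other junction genes was called (median 0.11), with Jam3 at -0.26 and Lsr at 0.28. None of 20 other mural genes was called (median 0.09). Mylk, the myosin light chain kinase, had an adjusted p of 0.0190 and a log2 fold change of 0.58 that fell just short of the fold threshold. Ppp1r14a, an inhibitor of myosin phosphatase, had -0.47 (adjusted p = 0.117).

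Of 7 tested perivascular macrophage markers 1 rose, the folate receptor gene Folr2 (log2 fold change 2.32, adjusted p = 0.0426). Its level was low, at 1.48, 3.14 and 1.80 CPM with CCI and 0.545 and 0.300 CPM after SHAM surgery. Siglec1 and Lyve1, at higher levels, overlapped between the groups and were not called (log2 fold changes 0.27 and -0.10). In all, 6 of the 7 had fold changes above 0. The summed level of the 7 was 76.4, 110 and 134 CPM with CCI and 82.9 and 79.2 CPM after SHAM surgery. Of 11 astrocyte genes, whose endfeet cover the vessel, 1 rose, Gfap. Aqp4, the water channel of the endfoot, was 1860 to 1968 CPM with CCI and 1524 and 1611 CPM after SHAM surgery, and did not pass (log2 fold change 0.29, adjusted p = 0.236). None of the fibroblast or Schwann cell markers was called, with list medians of 1.53 and 0.79.

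How many members were called depended on the fit, and the calls are read against all genes tested in the same fit. The likelihood ratio test called Pltp, Vwf and Cdh5 (5.18% of all genes), and DESeq2 these and Mfsd2a (4.56%). Without a scaling factor (3.72%) and without a filter (2.66%) the members called were Pltp and Vwf. Pltp alone was called with RLE scaling (2.75%), upper quartile scaling (2.95%), a filter on CPM (2.84%), the deposited normalized table at a pseudocount of 0.5 (2.73%) or 0.1 (2.81%), ribosomal rows left out (2.80%) and CCI 2 left out (3.36%). Leaving out CCI 1 gave Pltp, Vwf, Cdh5 and Mfsd2a (5.69%). No member was called with limma-voom (2.35%), without CCI 3 (2.32%), with CCI 2 and CCI 3 left out (3.01%), or with the Schwann cell (1.26%) or fibroblast (1.81%) covariate. In the sets left without SHAM 1 or SHAM 2 none was called either.

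**Figure D4:**
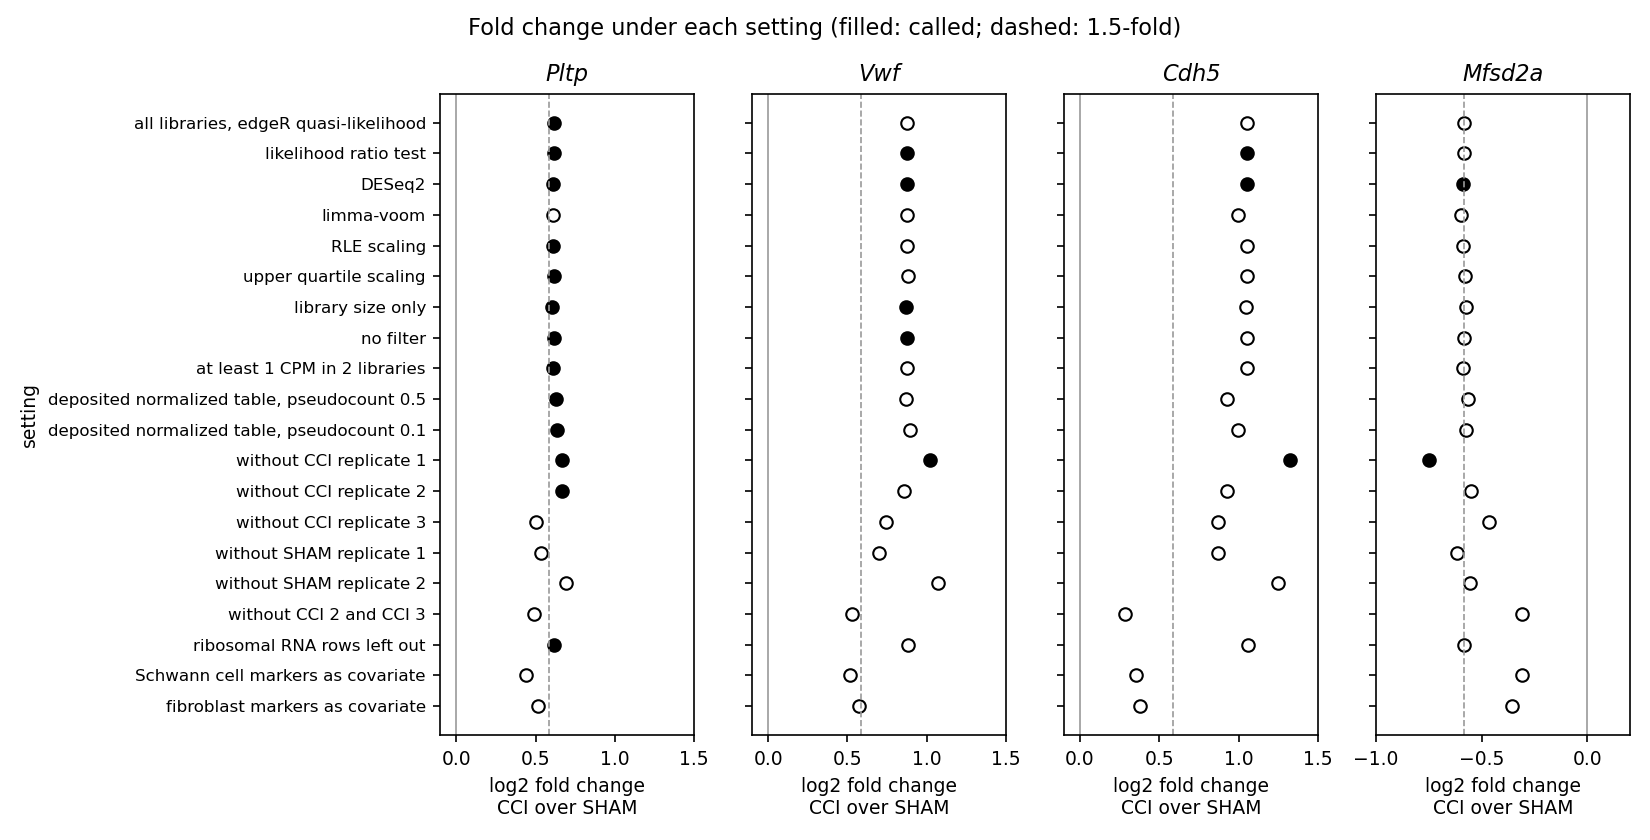
Log2 fold change of CCI over SHAM for Pltp, Vwf, Cdh5 and Mfsd2a in the fit of all libraries and under each of 19 alternatives. Filled points were called, and dashed lines mark 1.5-fold. Vwf and Cdh5 lie lowest, and Mfsd2a nearest 0, where CCI 2 and CCI 3 were left out or a marker covariate was used.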

How the data were processed

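The authors deposited estimated counts per gene symbol; the submitters' processing notes name kallisto 0.44.0, edgeR and the build rn6, and the series' design text says that kallisto values were scaled by trimmed mean of M-values (TMM). The deposited normalized table, named as transcript abundance, is treated as a length-scaled signal, since its columns sum to 903964 to 1050114. The calling thresholds follow the design text. Groups come from the treatment label. Replicate numbers were given in accession order and pair no samples.

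Rounded counts (20053353 to 23673198 per library) were tested in R 4.3.3 with edgeR 4.0.16: filterByExpr with a minimum count of 10, TMM, robust glmQLFit and two-sided glmQLFTest, and Benjamini-Hochberg adjustment over 13478 genes. Each SE was taken as the size of the log2 fold change over the square root of F; intervals are 95%. Adjusted p-values are from edgeR unless another tool is named. The script was tested on simulated data. There the quasi-likelihood fit called 29.9% of true 1.5-fold changes, 76.1% of 2-fold changes and 98.5% of 4-fold changes. An uncalled gene is therefore not shown to be unchanged.

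The members and lists were chosen with earlier results of these data known. All members are named; of each pathway list up to 4 called genes or, with none called, the 2 with the smallest p; of other lists some of the highest genes, 1 of which is not reported here. Folr2, Col4a1 and Hbb were named after their values were seen. Of the list genes, 2 took a row that is a RefSeq synonym and 22 had no row.

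Alternatives used limma 3.58.1, DESeq2 1.42.0, other scalings and filters, the deposited signal on a log2 scale, left-out libraries, left-out ribosomal rows and marker covariates. The marker covariates overlap with the groups, so values fitted with them do not show what the markers contribute. Figures used matplotlib 3.10.9.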

Additional observations from a re-analysis of the deposited data

How the results depend on the processing

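No paired analysis was possible because replicate numbers follow accession order. The number of all genes called was 698 with the likelihood ratio test, 614 with DESeq2, 170 with the Schwann cell covariate and 244 with the fibroblast covariate, beside 384, and 61 to 763 when single libraries were left out (61 without SHAM 1, 78 without SHAM 2, 763 without CCI 1). Endothelial and barrier members called, 1 in the fit of all libraries, numbered 3 with the likelihood ratio test (Pltp, Vwf, Cdh5), 4 with DESeq2 (these and Mfsd2a), 2 without a scaling factor and 2 without a filter (Pltp, Vwf), and 0 with limma-voom, either covariate, or CCI 2 and CCI 3 left out. Leaving out single libraries gave 0 to 4: 4 without CCI 1, 1 without CCI 2, and 0 without CCI 3, SHAM 1 or SHAM 2. No mural member was called under any of the 19 alternatives. The endothelial and barrier median stayed between 0.10 and 0.24 in all of them. The mural median was -0.25 with CCI 2 and CCI 3 left out, -0.11 with the Schwann cell covariate and -0.23 with the fibroblast covariate, and -0.09 to 0.10 without single libraries. The cause of these shifts was not tested.

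Over the 31 members and 19 alternatives, 534 values kept direction and call, 10 gained a call, 7 (all Pltp) lost it and 38 changed sign, all of them uncalled. Egfl7 was 0.00 with DESeq2 (-0.0017) and RLE scaling (-2.03e-05), -0.0057 with limma-voom, -0.12 with CCI 2 and CCI 3 left out and -0.12 with the fibroblast covariate. Abcc9 was 0.024 and 0.025 in the deposited table with pseudocounts of 0.5 and 0.1. Leaving out single libraries, Cldn5 ranged from -0.22 to 0.067 (above 0 without CCI 1, CCI 3 or SHAM 2), Kdr from -0.052 (without CCI 3) to 0.25, Egfl7 from -0.22 (without CCI 2; also below 0 without SHAM 1) to 0.17, Abcc9 from -0.10 to 0.091 (above 0 without CCI 2 or SHAM 2) and Myh11 from -0.28 (without CCI 2) to 0.32. With CCI 2 and CCI 3 left out, values were -0.0089 for Kdr, -0.048 for Tek, 0.089 for Slc2a1, -0.13 for Abcb1a, -0.089 for Pdgfrb, 0.016 for Abcc9, -0.34 for Acta2, -0.27 for Myh11 and -0.26 for Tagln. With the Schwann cell covariate they were -0.11 for Kdr, 0.038 for Slc2a1, -0.067 for Abcb1a, -0.076 for Pdgfrb and -0.15 for Acta2. With the fibroblast covariate they were -0.00073 for Tek, 0.059 for Slc2a1, -0.086 for Abcb1a, -0.064 for Pdgfrb, 0.0091 for Abcc9, -0.25 for Acta2, -0.22 for Myh11 and -0.16 for Tagln. Where SHAM has 1 library, that library is assumed to vary like the CCI group. With CCI 2 and CCI 3 left out, CCI 1 is likewise assumed to vary like the SHAM group. Calls kept or lost in these fits are therefore uncertain. Higd1b and Acta2 rest on the fewest counts.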

Other observations

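Ratios of members within each library, chosen after the values were seen, give the endothelial genes relative to Cldn5, the junction gene that differed little between the groups. In CPM, Vwf stood to Cldn5 at 1.15, 1.04 and 1.64 with CCI (CCI 1, then CCI 2, then CCI 3) and at 0.625 and 0.698 with SHAM. The ratio of Slc38a5 to Cldn5 was 0.0952, 0.0643 and 0.0670 in CCI and 0.0457 and 0.0416 in SHAM, and that of Pecam1 to Cldn5 was 0.375, 0.301 and 0.307 against 0.253 and 0.194. In each of these 3 the groups did not overlap, and the two-sided exact permutation p of the log2 ratio was 0.1, the smallest value that 10 splits of 5 libraries allow. Vwf, Slc38a5 and Pecam1 lay without overlap by themselves already, as did 36.7% of all tested genes. The share over ratios of other genes to Cldn5 was not computed. Since the ratios were picked after the values were seen, their p-values add no support. The groups did not overlap either, with an exact permutation p of 0.2 each, for Pltp to Cldn5 (0.926, 0.649 and 1.10 in CCI, 0.560 and 0.540 in SHAM), Cdh5 to Cldn5 (0.0900, 0.124 and 0.183 against 0.0580 and 0.0653) and Abcg2 to Cldn5 (0.0839, 0.0595 and 0.0896 against 0.120 and 0.0937). The ratio of Mfsd2a to Cldn5 was 0.394, 0.217 and 0.256 in CCI and 0.430 and 0.389 in SHAM, so CCI 1 lay between the SHAM libraries (exact permutation p = 0.3). The ratio of Abcb1a to Cldn5 overlapped between the groups, at 0.905, 0.822 and 1.08 against 0.883 and 0.777 (exact permutation p = 0.4).

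Among mural genes, the ratio of Tagln to Rgs5 was 0.314, 1.01 and 0.490 in CCI and 0.291 and 0.346 in SHAM (exact permutation p = 0.3). The ratio of Des to Rgs5 was 0.152, 0.425 and 0.195 in CCI and 0.112 and 0.110 in SHAM (exact permutation p = 0.2). The ratio of Acta2 to Rgs5 was 0.0807, 0.179 and 0.169 in CCI and 0.0787 and 0.0944 in SHAM (exact permutation p = 0.3), with CCI 2 and CCI 3 close to each other. That of Myh11 to Rgs5 was 1.04, 1.86 and 1.07 against 1.17 and 0.979 (exact permutation p = 0.8).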
